A study of Mus musculus with 23 samples.

Results

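The expression of 9 nuclear genes that govern how much mitochondrial mass a muscle fibre holds, how its mitochondria fuse and how it passes on their energy was followed across 6 groups of mouse muscle. They are Ppargc1a, Tfam, Nrf1, Esrra, Ppard, Ckmt2, Opa1, Mfn1 and Mfn2. Every probe set whose array annotation names a single gene, and that gene among these, was taken, which gave 19 of 22626 probe sets. Ppargc1a has 5 of these probe sets, Nrf1 and Mfn1 have 3 each, Opa1 and Mfn2 have 2 each, and the other 4 genes have 1 each. The brightest probe set of a gene over all arrays is called its leading one.

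RNA was measured on 23 arrays from *longissimus dorsi* (LD), a postural muscle along the spine, and from tongue (TN). BF mice had flown for 30 days aboard the Bion M1 biosatellite, FC mice had stayed in the animal facility, and BG mice had lived in the same habitat on the ground. LD was taken from 5 BF, 5 FC and 5 BG mice, and tongue from 3 BF, 2 FC and 3 BG mice. All were male mice aged 19 to 20 weeks of a strain that the labels write as C57/BL6 and the methods as C57BL/N6, and neither names an engineered allele. Tissue of the flown mice was sampled 12 to 14 h after landing. The sources used here do not give whether a mouse supplied both muscles, and p-values measure only the spread between these samples.

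PGC-1 alpha, the product of Ppargc1a, is a transcriptional coactivator that rises with endurance exercise and binds nuclear receptors and respiratory factors. Its partners ERR alpha (Esrra) and NRF-1 (Nrf1) switch on nuclear genes of the respiratory chain, and TFAM packages mitochondrial DNA and starts its transcription. Mitofusins (Mfn1, Mfn2) join the outer membranes of neighbouring mitochondria, and OPA1 joins the inner ones. PPAR delta (Ppard) drives fatty acid use in muscle, and Ckmt2 is the mitochondrial creatine kinase of muscle that passes energy to phosphocreatine.

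Values are log2 expression, in which 2-fold equals a step of 1. A probe set passed a comparison at an adjusted p under 0.05 in limma after Benjamini-Hochberg adjustment over the 22626 probe sets within that comparison. No member changed by more than 2-fold where it passed. In LD, array medians lay between 6.42 and 6.54, and the SD of an array around its group mean was 0.149 to 0.254 except for BG replicate 5 at 0.356. The skeletal muscle markers averaged 13.93 to 14.01 in the LD groups. Slow fibre markers averaged 11.25 (array range 10.26 to 11.85) in BF, 11.14 (9.31 to 11.84) in FC and 11.79 (11.16 to 12.48) in BG. Macrophage markers averaged 7.41 (6.66 to 8.16) in BF, 7.33 (6.94 to 7.82) in FC and 8.01 (7.38 to 9.49) in BG. The epithelial keratin Krt13 averaged 3.39 to 3.91 in the LD groups and 13.63 to 13.86 in the tongue groups, and muscle markers averaged 12.25 to 12.77 in tongue. In such bulk samples fewer cells of a type and less RNA per cell cannot be told apart.

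Promoter windows of the 4 genes whose leading probe set passed a comparison within LD are shown because these start regions can be set beside the expression values. RefSeq (GRCm38.p6) lists 12 start windows for the 9 genes, and the 250 bases before each start were searched on both strands for 5 motifs. Among the 4 windows shown, only that of Mfn2 matched the annotated start of its gene. Starts outside the listed windows were not searched. These were TGACG (a CRE half-site, bound by CREB and ATF factors), AAGGTCA (an ERR half-site), GCATGCGC (the NRF-1 core), CCGGAAG (the GABP core) and CACGTG (an E-box). Among all 32851 promoter windows, 17.8% hold TGACG, 4.08% AAGGTCA, 2.26% GCATGCGC, 6.91% CCGGAAG and 6.02% CACGTG. Capitals mark every match in the sequences, which are printed 5′ to 3′ on the strand of the gene.
Ppargc1a: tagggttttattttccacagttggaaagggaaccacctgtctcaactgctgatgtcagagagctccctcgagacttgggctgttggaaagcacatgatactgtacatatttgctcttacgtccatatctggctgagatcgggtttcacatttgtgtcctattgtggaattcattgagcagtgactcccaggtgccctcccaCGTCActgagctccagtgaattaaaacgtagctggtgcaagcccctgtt
Esrra: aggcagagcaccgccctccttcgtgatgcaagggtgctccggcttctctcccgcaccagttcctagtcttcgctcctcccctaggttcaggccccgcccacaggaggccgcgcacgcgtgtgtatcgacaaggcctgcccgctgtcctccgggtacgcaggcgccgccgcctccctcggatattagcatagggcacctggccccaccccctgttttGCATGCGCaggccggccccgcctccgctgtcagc
Opa1: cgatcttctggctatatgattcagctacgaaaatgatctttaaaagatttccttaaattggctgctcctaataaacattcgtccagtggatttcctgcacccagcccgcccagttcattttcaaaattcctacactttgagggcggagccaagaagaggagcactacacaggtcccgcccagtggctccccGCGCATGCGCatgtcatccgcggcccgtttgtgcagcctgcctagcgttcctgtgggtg
Mfn2: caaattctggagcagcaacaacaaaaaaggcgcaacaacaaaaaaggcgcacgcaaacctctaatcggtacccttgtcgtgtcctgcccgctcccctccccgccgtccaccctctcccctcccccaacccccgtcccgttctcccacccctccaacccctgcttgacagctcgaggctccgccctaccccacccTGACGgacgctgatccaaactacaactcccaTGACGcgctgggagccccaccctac
The Ppargc1a window is chr5:51567726-51567975 (minus strand), with 1 match to TGACG on the other strand, read here as CGTCA. The Esrra window is chr19:6921809-6922058 (minus strand), with 1 match to GCATGCGC. The Opa1 window is chr16:29579084-29579333 (plus strand), where 2 matches to GCATGCGC on opposite strands overlap. The Mfn2 window is chr4:147904910-147905159 (minus strand), the most upstream of the 3 windows of this gene, and it holds TGACG at 2 places. Each of the other Mfn2 windows, not shown, holds TGACG at 3 places. The windows overlap, so some of these matches are the same. AAGGTCA and CACGTG were found in none of the 12 windows. Of the genes not shown, Tfam and Mfn1 hold CCGGAAG and Mfn1 also TGACG, while the windows of Nrf1, Ppard and Ckmt2 hold none of the 5 motifs. These are matches of letters and no evidence of binding.

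**Figure D1:**
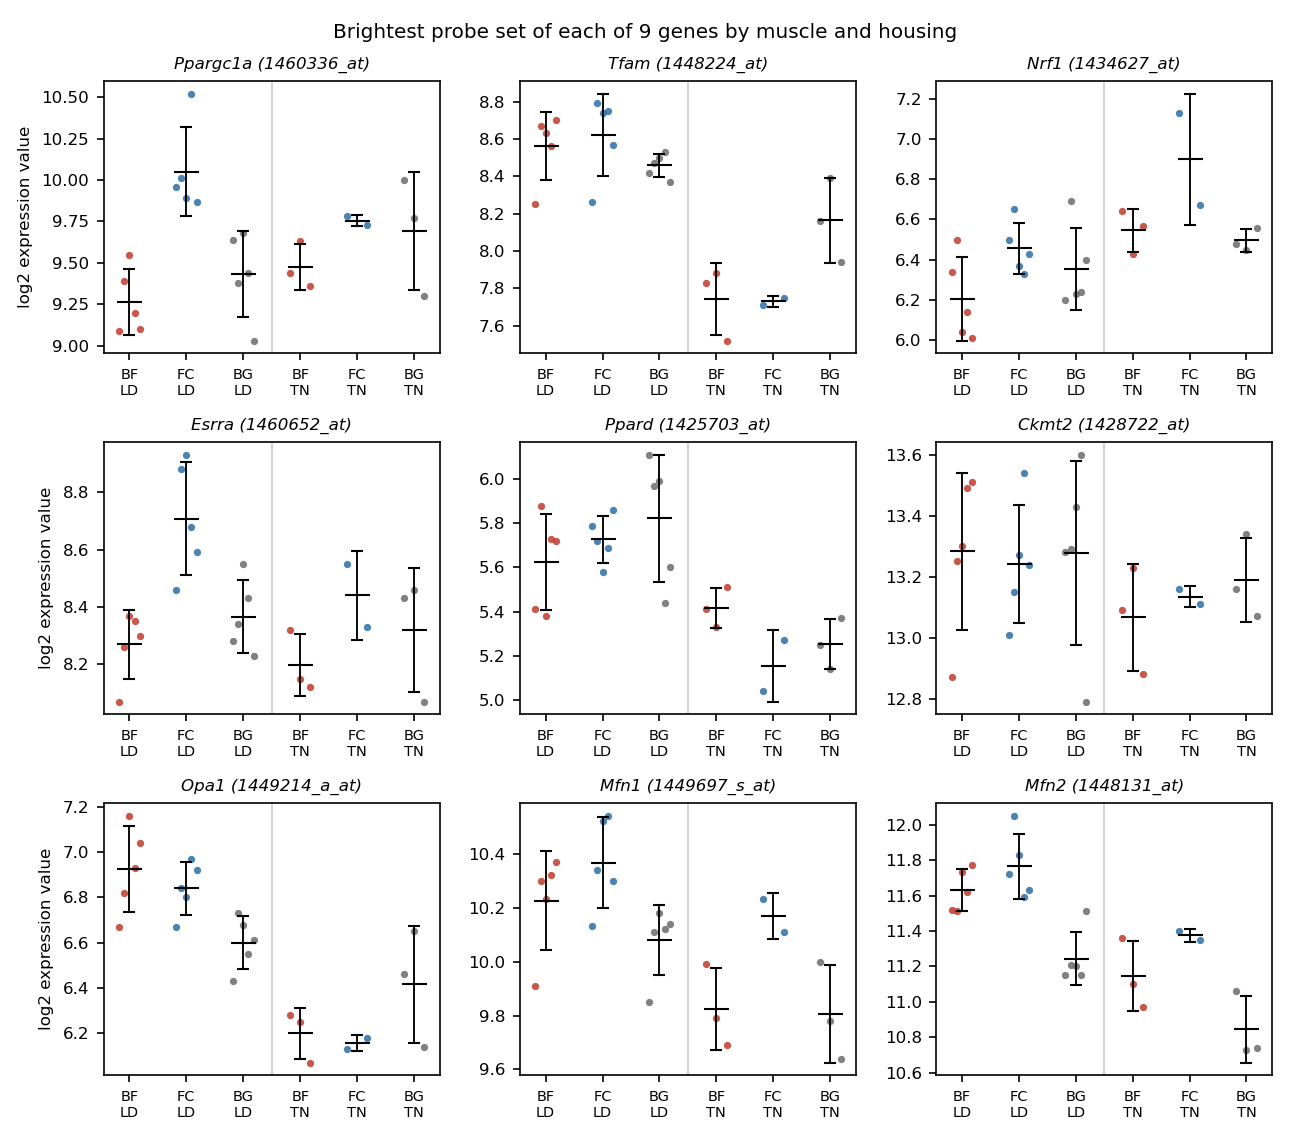
Log2 expression value (y axis) of the leading probe set of each of the 9 genes in every array, by group (x axis, LD left of the line and tongue right of it); points are arrays, and bars show the mean ± SD. On average Ppargc1a and Esrra are highest in FC LD, Mfn2 is lowest in BG of both muscles, and Ckmt2 overlaps between the 3 housings in each muscle.

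Ppargc1a was lower in LD of flown mice than in LD of facility mice and did not separate flown mice from habitat controls. The leading probe set 1460336_at read 9.09, 9.39, 9.55, 9.20 and 9.10 in the 5 BF arrays, 9.96, 10.01, 9.89, 10.52 and 9.87 in the 5 FC arrays, and 9.64, 9.38, 9.68, 9.44 and 9.03 in the 5 BG arrays. Every FC array lay above every BF and every BG array, while BF and BG arrays overlapped. The log2 difference was -0.78 in BF vs. FC (standard error 0.146, adjusted p = 0.00377), a fall by 1.72-fold. It was 0.61 in FC vs. BG (standard error 0.146, adjusted p = 0.0121). In BF vs. BG it was -0.17 (standard error 0.146, adjusted p = 0.517). The comparisons share arrays, so the first 2 differences are not independent of each other. Both passing calls held under each of the 8 other models or scalings and without any single array, with adjusted p up to 0.0144 in BF vs. FC and up to 0.0296 in FC vs. BG.

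The other 4 probe sets of Ppargc1a gave the same order of group means in LD, with FC highest and BF lowest. Probe set 1434099_at averaged 7.63 ± 0.19 in BF, 8.52 ± 0.35 in FC and 7.92 ± 0.34 in BG (SD, n = 5 each). In BF vs. FC its log2 value fell by 0.89 (standard error 0.183, adjusted p = 0.00782) and rose in FC vs. BG by 0.60 (adjusted p = 0.0424), a call that was lost without 9 of the 23 arrays in turn (up to 0.104) and under 3 of the 8 other models or scalings (up to 0.0873). Probe set 1434100_x_at averaged 8.01 ± 0.26 in BF, 8.87 ± 0.39 in FC and 8.33 ± 0.28 in BG, and fell in BF vs. FC by 0.86 (standard error 0.192, adjusted p = 0.0126). Probe set 1456395_at had a difference of -0.70 in BF vs. FC (adjusted p = 0.0626) and 1437751_at one of -0.49 (adjusted p = 0.243), neither of which passed. FC replicate 4 held the highest value of all 15 LD arrays in each of the 5 probe sets, for example 9.14 in 1434099_at where the other FC arrays lay between 8.26 and 8.44. Without that array the 3 calls in BF vs. FC remained. The probe sets of this gene ran together over the 15 LD arrays, with Pearson r between 0.841 and 0.979. This r describes 1 gene measured by several probe sets in the same RNA.

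**Figure D2:**
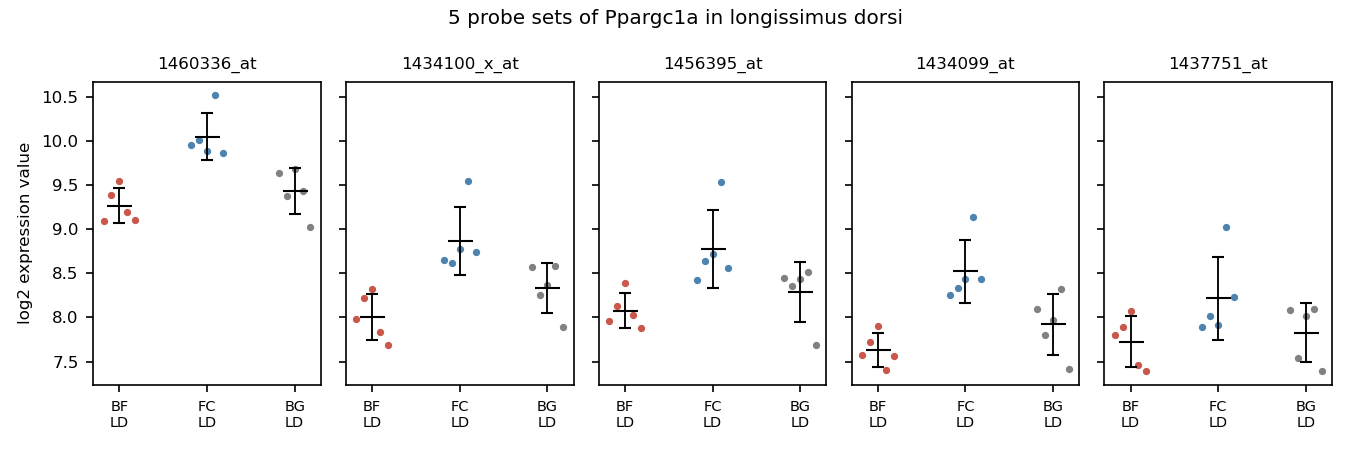
Log2 expression value (shared y axis) of the 5 Ppargc1a probe sets in each LD array, with BF, FC and BG on the x axis; points are arrays, bars mean ± SD. In each panel the FC mean is the highest and the BF mean the lowest, and the single high FC point is replicate 4.

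Esrra, the orphan receptor that PGC-1 alpha coactivates, followed the same order. Its probe set 1460652_at read 8.07, 8.26, 8.37, 8.35 and 8.30 in BF, 8.46, 8.88, 8.93, 8.68 and 8.59 in FC, and 8.28, 8.34, 8.55, 8.43 and 8.23 in BG. All FC arrays lay above all BF arrays, and 1 FC array lay within the range of BG. The log2 value of Esrra fell by 0.44 in BF vs. FC (standard error 0.103, adjusted p = 0.0164), and without FC replicate 3 the adjusted p was 0.0613. It rose in FC vs. BG by 0.34 (standard error 0.103, adjusted p = 0.0398), but under 3 of the 8 other models or scalings and without 7 single arrays that call was lost (adjusted p up to 0.118). The difference was -0.10 in BF vs. BG (adjusted p = 0.612). Over the 15 LD arrays Esrra and Ppargc1a had a Pearson r of 0.771, and of 0.284 once each group's mean was removed.

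Mfn2, a mitofusin of the outer membrane, was higher in LD of both BF and FC mice than in LD of BG mice. Probe set 1448131_at read 11.52, 11.51, 11.73, 11.62 and 11.77 in BF, 11.72, 12.05, 11.83, 11.59 and 11.63 in FC, and 11.15, 11.21, 11.20, 11.15 and 11.51 in BG. BF and FC arrays overlapped, and BG replicate 5 at 11.51 was the only BG array near them. Mfn2 rose in BF vs. BG by 0.39 (standard error 0.105, adjusted p = 0.0216) and in FC vs. BG by 0.52 (standard error 0.105, adjusted p = 0.00481). The call in BF vs. BG was lost without BF replicate 3 or 5 or BG replicate 1 or 4 (adjusted p up to 0.0614), while that in FC vs. BG held without every single array (up to 0.0186). In BF vs. FC the difference was -0.13 (adjusted p = 0.61). The dim second probe set 1451900_at, at values of 3.53 to 4.41 in LD, did not pass in any of these comparisons. Its difference in BF vs. BG was -0.25 (adjusted p = 0.204), opposite in sign to that of 1448131_at. There its BF arrays (3.79 to 4.02) all lay below its BG arrays (4.05 to 4.24).

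Opa1, the inner membrane fusion GTPase, passed in BF vs. BG near the threshold. Its leading probe set 1449214_a_at read 6.67, 6.82, 7.16, 6.93 and 7.04 in BF, 6.67, 6.84, 6.80, 6.97 and 6.92 in FC, and 6.43, 6.73, 6.68, 6.55 and 6.61 in BG. The BF and BG arrays overlapped, and the difference was 0.32 (standard error 0.102, adjusted p = 0.0477). The call was lost without 17 of the 23 arrays in turn and under 5 of the 8 other models or scalings (adjusted p up to 0.134). The difference was 0.24 in FC vs. BG (adjusted p = 0.15) and in BF vs. FC it was 0.08 (adjusted p = 0.792). Mfn1, the mitofusin closest to Mfn2, passed in no comparison within LD. Its brightest probe set averaged 10.23 ± 0.18 in BF, 10.36 ± 0.17 in FC and 10.08 ± 0.13 in BG, with a difference of 0.28 in FC vs. BG (adjusted p = 0.0894). There 1426773_at differed by 0.30 (adjusted p = 0.0638) and 1419997_at by 0.15 (adjusted p = 0.436). In BF vs. BG these 2 probe sets differed by 0.14 and -0.09.

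The remaining 4 genes gave no passing probe set in LD. Tfam averaged 8.56 ± 0.19 in BF, 8.62 ± 0.22 in FC and 8.46 ± 0.06 in BG, with differences between -0.06 and 0.16. Ckmt2 read 12.87 to 13.51 in BF, 13.01 to 13.54 in FC and 12.79 to 13.60 in BG, so that the groups overlapped throughout, and its differences were -0.03 to 0.04. Ppard averaged 5.62 ± 0.22 in BF, 5.73 ± 0.11 in FC and 5.82 ± 0.29 in BG. The leading Nrf1 probe set 1434627_at averaged 6.21 ± 0.21 in BF, 6.46 ± 0.13 in FC and 6.35 ± 0.21 in BG, with a difference of -0.25 in BF vs. FC (adjusted p = 0.276). The 3 Nrf1 probe sets did not run together in LD (Pearson r between -0.016 and 0.320 over 15 arrays), so this gene's level is uncertain.

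Counted over the 19 probe sets, 4 passed in BF vs. FC in LD, all lower, where 3.66% of all probe sets passed. They belong to 2 genes, since 3 of them measure Ppargc1a. In FC vs. BG 4 passed, all higher (Ppargc1a with 2, Esrra and Mfn2), where 8.95% of all passed. In BF vs. BG 2 passed, Mfn2 and Opa1, both higher, where 10.2% of all passed, a share close to that of the members. Without BG replicate 5, the array farthest from its group, 5 passed in BF vs. FC, 2 in BF vs. BG and 3 in FC vs. BG. At an unadjusted p under 0.05 the counts were 8 in BF vs. FC, 2 in BF vs. BG and 9 in FC vs. BG. Groups did not overlap for 5 of the 19 in BF vs. FC (5.16% of all probe sets), 1 in BF vs. BG (6.98%) and 4 in FC vs. BG (5.76%). Those in BF vs. FC were Esrra and every Ppargc1a probe set except 1437751_at. The 1 in BF vs. BG was the dim Mfn2 1451900_at, which was lower in BF. The median difference over the 19 probe sets was -0.137 in BF vs. FC, -0.088 in BF vs. BG and 0.239 in FC vs. BG. Over all probe sets the medians were -0.03, -0.03 and -0.01.

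**Figure D3:**
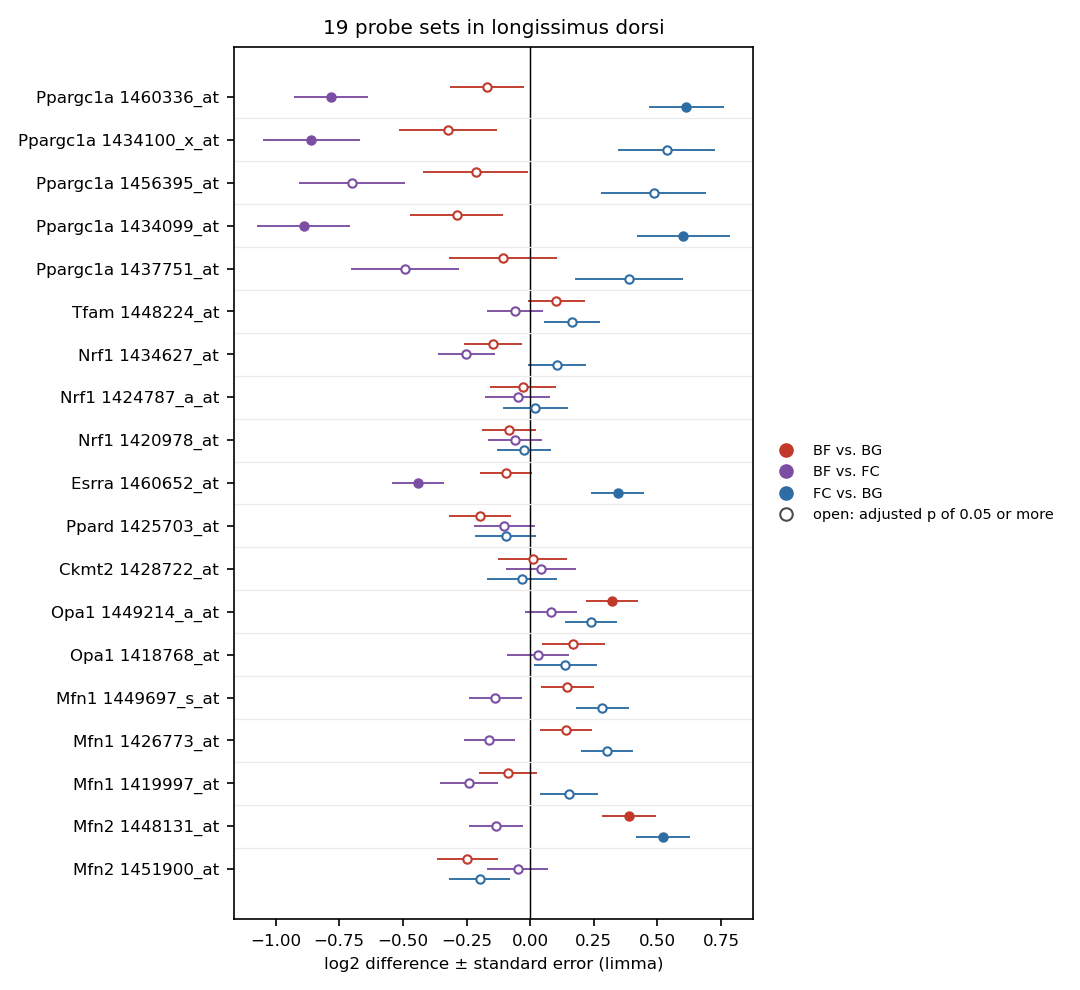
Log2 difference ± standard error (x axis) of the 19 probe sets (rows) in BF vs. BG, BF vs. FC and FC vs. BG within LD; filled points passed at an adjusted p under 0.05. The Ppargc1a and Esrra points of BF vs. FC lie left of 0, between -0.89 and -0.44, and those of FC vs. BG lie right of it, between 0.34 and 0.61.

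In tongue, Mfn2 was the only member to pass. It read 11.40 and 11.35 in FC and 11.06, 10.73 and 10.74 in BG, and rose in FC vs. BG by 0.53 (standard error 0.151, adjusted p = 0.0298), where 9.45% of all probe sets passed. With 2 FC arrays the call was lost without either of them or without BG replicate 2 or 3 (adjusted p up to 0.233). The BF tongues read 11.36, 11.10 and 10.97 and overlapped both other groups, with a difference of 0.30 in BF vs. BG (adjusted p = 0.289). Of the 19 probe sets limma passed 0 in BF vs. BG (0.826% of all) and 0 in BF vs. FC (2.24% of all), with 4 in each at an unadjusted p under 0.05. With array weights 3 and 1 passed. Ppargc1a 1460336_at averaged 9.48 ± 0.14 in BF tongue (SD, n = 3), 9.75 ± 0.03 in FC tongue (n = 2) and 9.69 ± 0.36 in BG tongue (n = 3). Of its other probe sets, 1434100_x_at differed by -0.72 in BF vs. BG (adjusted p = 0.155) and 1434099_at by -0.54 (adjusted p = 0.269). There 1437751_at differed by -0.53 and 1456395_at by -0.23. In BF vs. FC the differences were -0.60, -0.48, 0.06 and -0.29 in the same order, and none passed. Tfam read 7.83, 7.88 and 7.52 in BF tongue, 7.71 and 7.75 in FC tongue and 8.16, 8.39 and 7.94 in BG tongue. All BG tongues thus lay above all others, with differences of -0.42 in BF vs. BG (adjusted p = 0.159) and -0.43 in FC vs. BG (adjusted p = 0.0948). With so few arrays, groups did not overlap for 18.5% of all probe sets in BF vs. BG and 44.8% in FC vs. BG.

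The difference between the muscles in the flight comparisons was tested as an interaction. For LD minus tongue of BF vs. BG limma passed 0 of 19 members (0.172% of all probe sets), with 2 at an unadjusted p under 0.05, and 1 with array weights. These 2 were Opa1 1449214_a_at at 0.54 (standard error 0.167, adjusted p = 0.195) and Tfam at 0.52 (standard error 0.182, adjusted p = 0.25). For LD minus tongue of BF vs. FC it passed 0 (0.0663% of all), with 1 at an unadjusted p under 0.05. For Ppargc1a 1460336_at that interaction was -0.51 (standard error 0.256, adjusted p = 0.637), so the fall seen in LD was not shown to differ from that in tongue (-0.28, standard error 0.211).

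Between the muscles, several fusion probe sets and Tfam were higher in LD than in tongue in several groups. Tfam differed by 0.82 in BF (standard error 0.129, adjusted p = 1.5e-05), 0.89 in FC (adjusted p = 2.95e-05) and 0.30 in BG, where it did not pass (adjusted p = 0.0565). Opa1 1449214_a_at differed by 0.72 in BF (adjusted p = 2.42e-05), 0.68 in FC (adjusted p = 0.000234) and 0.18 in BG (adjusted p = 0.2). Mfn2 1448131_at was higher in LD in all 3 groups, by 0.49 in BF, 0.39 in FC and 0.40 in BG. Its call in FC was lost without FC LD replicate 2 or either FC tongue (adjusted p up to 0.138), and that in BG without BG tongue replicate 2 (0.0508). Probe set 1426773_at of Mfn1 was higher by 0.64, 0.70 and 0.43 in BF, FC and BG mice, and 1419997_at by 0.54, 0.77 and 0.73. The leading Mfn1 probe set 1449697_s_at differed by 0.41 in BF (adjusted p = 0.00778, and 0.0548 without BF tongue replicate 3), while its differences of 0.19 in FC (adjusted p = 0.261) and 0.28 in BG (adjusted p = 0.0552) did not pass. Opa1 1418768_at differed by 0.47 in FC (adjusted p = 0.0226), a call lost without FC LD replicate 5 or either FC tongue (up to 0.117), and by 0.17 in BF (adjusted p = 0.344) and 0.19 in BG (adjusted p = 0.259). The median over 12393 genes was itself above 0 in these comparisons, at 0.101 in BF, 0.125 in FC and 0.176 in BG.

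Ppargc1a ran the other way in 2 of its probe sets. Probe set 1434099_at was lower in LD than in tongue by 0.67 in BF (standard error 0.211, adjusted p = 0.0114) and by 0.93 in BG (standard error 0.211, adjusted p = 0.000871), and 1434100_x_at by 0.92 in BG (adjusted p = 0.00151). Without BF tongue replicate 2 the call of 1434099_at in BF was lost (adjusted p = 0.0824). The leading probe set of this gene had differences of -0.21, 0.29 and -0.26 in BF, FC and BG, of which none passed, so the probe sets of this gene disagree on the muscles. Nrf1 was split too. In FC mice 1434627_at was lower in LD by 0.44 (adjusted p = 0.019), while 1424787_a_at was higher by 0.95 (adjusted p = 7.68e-05). Without FC tongue replicate 1 the difference of 1434627_at was -0.21 (adjusted p = 0.414), and median centring also ended that call (adjusted p = 0.0503). In BF mice this probe set differed by -0.34 (adjusted p = 0.0383), a call lost without any of 5 arrays and with median centring (up to 0.139). Ppard was higher in LD by 0.57 in FC (adjusted p = 0.00514, and 0.1 without FC tongue replicate 1) and 0.57 in BG (adjusted p = 0.00171). Ckmt2 and Esrra passed in none of the 3 groups, with differences between 0.04 and 0.27.

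Of the 19 probe sets, 8 passed between the muscles in BF (6 higher, 2 lower in LD), 9 in FC (8 higher, 1 lower) and 8 in BG (6 higher, 2 lower). Of all probe sets 45.8% passed in BF, 46.8% in FC and 54.1% in BG. Tongue RNA also held the epithelial markers given above, and the part of that tissue in these differences was not tested.

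**Figure D4:**
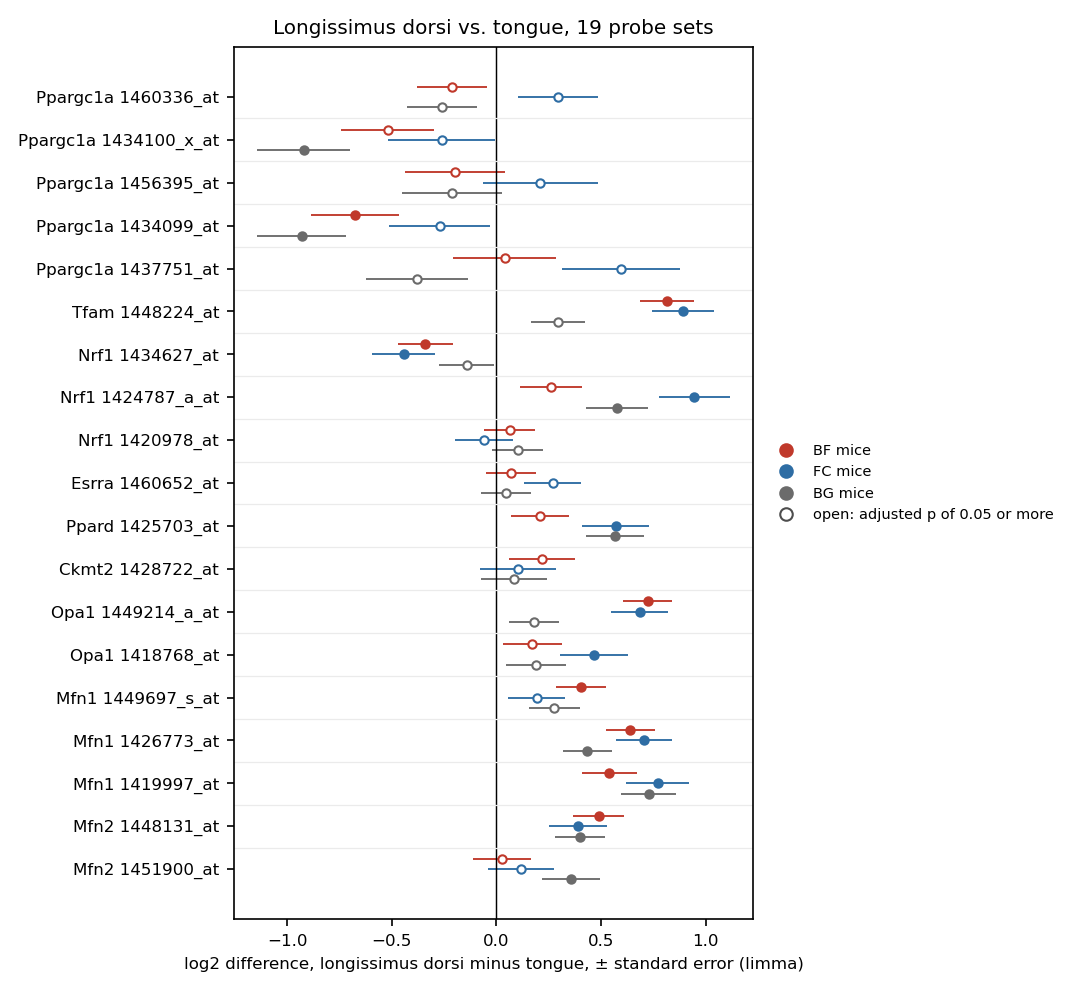
Log2 difference, LD minus tongue, ± standard error (x axis) of the 19 probe sets (rows) in BF, FC and BG mice; filled points passed at an adjusted p under 0.05. Tfam, Opa1 1449214_a_at and the Mfn1 and Mfn2 points lie mostly right of 0, while Ppargc1a 1434099_at and 1434100_x_at lie left of it.

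Around these members, genes of the PGC-1 family and its co-regulators rose in LD of both BF and FC mice against BG mice. Of the 14 measured genes (19 listed), 7 rose in BF vs. BG and 0 fell in LD, where 6.06% of 12393 genes rose and 4.48% fell. In FC vs. BG 10 rose and 0 fell, where 8.07% of all genes rose and 2.19% fell. The medians were 0.347 and 0.432, against -0.037 and -0.004 over all genes. Those counts use the brightest probe set of each gene. Over all 34 probe sets of these genes 13 rose in BF vs. BG and 14 in FC vs. BG, and 0 fell in either. Of all probe sets 6.41% and 6.79% rose. Both comparisons use the same BG arrays. Crtc2, a CREB coactivator, rose by 0.49 in BF vs. BG (adjusted p = 0.00125) and 0.47 in FC vs. BG (adjusted p = 0.00333). Pprc1, a relative of PGC-1 alpha, rose by 0.56 and 0.51 (adjusted p = 0.00357 and 0.00928). Kdm5a, a histone demethylase, rose by 0.48 and 0.40, and Mef2c, a muscle transcription factor, by 0.51 and 0.47. Most macrophage and slow fibre markers had differences of the opposite sign, though few passed. Of the 13 macrophage markers, 0 of BF vs. BG and 0 of FC vs. BG were above 0 and the medians were -0.695 and -0.669. Of these 0 and 2 passed. Among the 9 slow fibre markers 1 and 0 were above 0, and 1 fell past the threshold in each comparison. The macrophage marker C1qb read 10.86 in BG replicate 5 and 8.26 to 8.86 in the other BG arrays. Their part in these counts was not tested.

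Nrip1, the corepressor RIP140 that opposes PGC-1 alpha on oxidative genes, changed most among these co-regulators in BF vs. FC and in FC vs. BG. It averaged 9.39 ± 0.47 in BF, 10.25 ± 0.61 in FC and 9.03 ± 0.34 in BG (SD, n = 5 each). The FC arrays lay at 10.58, 10.97, 10.44, 9.77 and 9.48 and the BG arrays at 8.92, 8.86, 9.07, 8.71 and 9.58, so that only BG replicate 5 reached the FC range. Nrip1 fell in BF vs. FC by 0.86 (standard error 0.233, adjusted p = 0.0399) and rose in FC vs. BG by 1.22 (standard error 0.233, adjusted p = 0.00368). By the brightest probe set of each gene, Nrip1 alone of the list passed in BF vs. FC, where 1.84% of all genes fell and 1.24% rose. Over all 34 probe sets of the list genes 3 rose and 1 fell, beside 2.06% and 1.6% of all probe sets. Camk2b and Mef2d, an upstream kinase and a further MEF2 factor, rose in FC vs. BG by 0.54 (adjusted p = 0.00479) and 0.58 (adjusted p = 0.0048).

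Some PPAR delta target genes rose in BF vs. FC, while Ppard itself had a difference of -0.10 (adjusted p = 0.782). Of 19 measured genes 4 rose and 0 fell, where 1.24% of all genes rose and 1.84% fell, with a median of 0.194 against -0.037 over all genes. Acot2, a mitochondrial acyl-CoA thioesterase, read 7.63, 7.96, 8.73, 8.44 and 8.36 in BF, 6.26, 6.53, 5.99, 6.42 and 7.07 in FC and 6.12 to 7.65 in BG. All BF arrays lay above all FC arrays, only 1 BG array came within the BF range, and the rise in BF vs. FC was 1.77 (standard error 0.248, adjusted p = 0.000286). Acot1, its cytosolic relative, whose probes may share sequence with it, rose by 1.34 (adjusted p = 0.0101). Angptl4, a secreted inhibitor of lipoprotein lipase, rose by 1.59 (standard error 0.379, adjusted p = 0.0192), and Cd36, a fatty acid transporter, by 0.73 (adjusted p = 0.0272). Between FC and BG 3 of the 19 fell, where 2.19% of all genes fell, Plin2 by 0.77 (adjusted p = 0.00928), Angptl4 by 1.52 (adjusted p = 0.0162) and Cd36 by 0.71 (adjusted p = 0.0209). Of these genes Acot2 and Acot1 also rose in BF vs. BG, by 1.59 (adjusted p = 0.000416) and 0.94 (adjusted p = 0.0411). Of the 10 measured adipocyte markers, 6 were above 0 in BF vs. FC (median 0.349) and 1 in FC vs. BG (median -0.331), and none passed. Fabp4 belongs to both lists, and the part of fat cells in these counts was not tested.

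**Figure D5:**
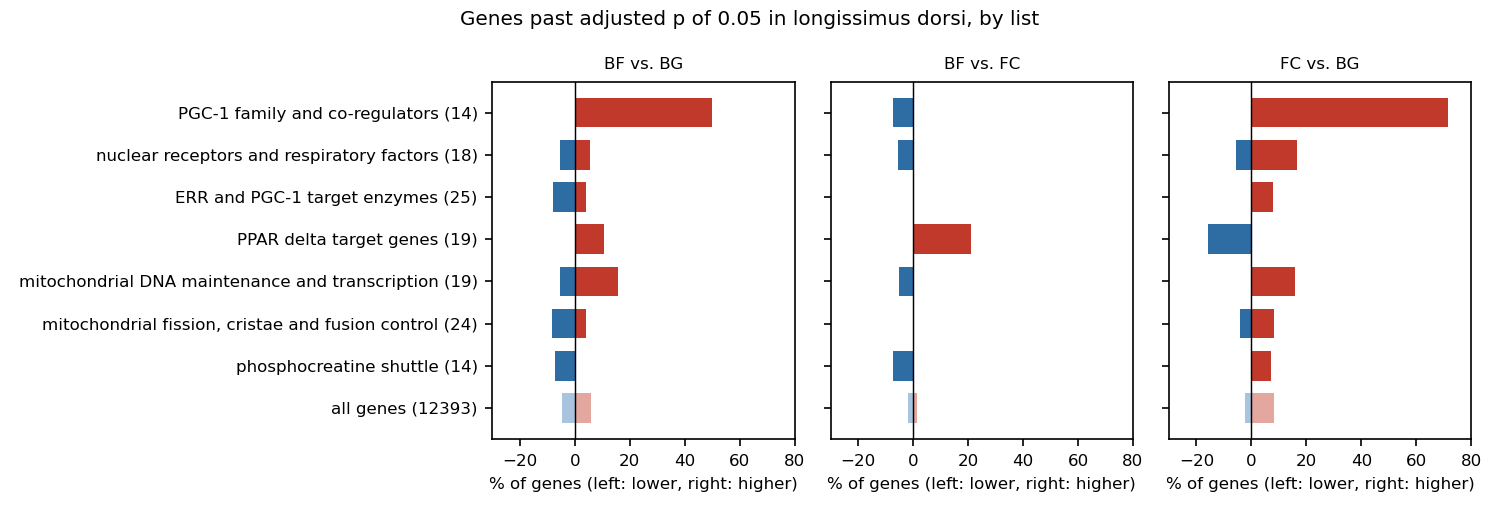
Share of measured genes (x axis, percent, higher to the right and lower to the left) that passed at an adjusted p under 0.05 in each of 7 gene lists (rows, number measured in brackets) in LD, for BF vs. BG, BF vs. FC and FC vs. BG; the pale bars give all 12393 genes. By the brightest probe set of each gene, the list of PGC-1 family and co-regulators reaches furthest to the right against BG, with 7 and 10 of 14 genes. The PPAR delta list does so in BF vs. FC, with 4 of 19.

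None of the genes listed as controlled by ERR and PGC-1, not all of them enzymes, passed in BF vs. FC in LD. Of 25 measured genes limma passed 0, with 0 at an unadjusted p under 0.05, where 1.24% of all genes rose and 1.84% fell, and the median was -0.020. In BF vs. BG 1 rose and 2 fell, where 6.06% of all genes rose and 4.48% fell. Slc2a4, the insulin-regulated glucose transporter, rose by 0.30 (adjusted p = 0.0336), while Timm8a1, of the mitochondrial import machinery, and Vegfa, an angiogenic factor, fell by 0.77 (adjusted p = 0.0163) and 0.52 (adjusted p = 0.0281). Both Slc2a4 and Ogdh, an enzyme of the tricarboxylic acid cycle, rose in FC vs. BG, by 0.31 (adjusted p = 0.0298) and 0.63 (adjusted p = 0.0414), where 8.07% of all genes rose. The nuclear receptor list gave 1 passing gene of 18 in BF vs. FC, Ppara, the relative of PPAR delta, which fell by 1.04 (standard error 0.263, adjusted p = 0.0268). In FC vs. BG its genes Rxrb (0.40, adjusted p = 0.0105), Rxra (0.73, adjusted p = 0.017) and Thra (0.44, adjusted p = 0.0264) rose, and Nr1d1, a clock repressor, fell by 0.87 (adjusted p = 0.0475). In BF vs. BG Nfe2l2 rose by 0.45 (adjusted p = 0.0377) and Nr1d1 fell by 1.02 (adjusted p = 0.0205).

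Among the 19 measured genes of mitochondrial DNA maintenance, 3 rose and 1 fell in BF vs. BG, and 3 rose and 0 fell in FC vs. BG. Of all genes 6.06% rose and 4.48% fell in BF vs. BG, and 8.07% rose and 2.19% fell in FC vs. BG. Polrmt, the mitochondrial RNA polymerase that works with TFAM, read 8.84 to 9.21 in BF, 8.90, 9.16, 9.26, 8.88 and 8.85 in FC, and 8.22, 8.37, 8.70, 8.30 and 8.44 in BG. Every BF and FC array lay above every BG array, with differences of 0.61 in BF vs. BG (adjusted p = 0.00189) and 0.61 in FC vs. BG (adjusted p = 0.00338). Lonp1, a matrix protease, rose by 0.35 (adjusted p = 0.0377) and 0.51 (adjusted p = 0.00614), and Polg2, a subunit of the mitochondrial DNA polymerase, by 0.33 in each (adjusted p = 0.0174 and 0.0185). Slirp, which binds mitochondrial RNA, fell in BF vs. BG by 0.47 (adjusted p = 0.0493), and Mgme1, a mitochondrial nuclease, fell in BF vs. FC by 0.43 (adjusted p = 0.0446). In tongue Polrmt rose in FC vs. BG by 0.66 (adjusted p = 0.0146).

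Of the 24 measured genes of fission, cristae and fusion control, 1 rose and 2 fell in BF vs. BG, beside 6.06% and 4.48% of all genes. Oma1, a protease that cuts OPA1, fell by 0.47 (standard error 0.127, adjusted p = 0.022), Stoml2 fell by 0.31 (adjusted p = 0.0393) and Slc25a46 rose by 0.29 (adjusted p = 0.0432). In FC vs. BG Spg7 rose by 0.53 (adjusted p = 0.00257) and Afg3l2 by 0.30 (adjusted p = 0.0398), the subunits of an inner membrane protease, while Chchd3 of the cristae complex fell by 0.46 (adjusted p = 0.0492), beside 8.07% of all genes that rose and 2.19% that fell. In tongue 0 of the 24 rose and 5 fell in FC vs. BG, where 5.72% of all genes rose and 4.18% fell. Yme1l1, a protease that also cuts OPA1, fell by 1.23 (standard error 0.233, adjusted p = 0.00282) and Bnip3, a mitophagy receptor, by 0.69 (adjusted p = 0.00552). In the same comparison 7 of the 34 probe sets of the list of PGC-1 family and co-regulators rose and 0 fell. These stand beside 5.13% and 4.33% of all probe sets. By the brightest probe set of each gene, 5 of the 14 listed genes rose and 0 fell. They were led by Mef2d with 0.71 (adjusted p = 0.0114) and Ppargc1b, the paralogue of Ppargc1a, with 0.89 (adjusted p = 0.0157). The FC tongue group has 2 arrays, and without either of them, or without BG replicate 2, that count was 0 to 1. Slow fibre markers averaged 7.43 in BF tongue, 6.91 in FC tongue and 8.06 in BG tongue, and in FC vs. BG 1 of the 9 was above 0 with a median of -0.826. Of the 5 Schwann cell markers 2 rose in that comparison, with a median of 0.711, and muscle markers of single tongue arrays lay between 12.02 and 13.26. The part of these markers in the tongue results was not tested.

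In the list of the phosphocreatine shuttle, to which Ckmt2 belongs by function, 1 gene passed in each comparison within LD, of 14 measured. The shares of all genes that rose and fell in these comparisons were 6.06% and 4.48% for BF vs. BG, 1.24% and 1.84% for BF vs. FC, and 8.07% and 2.19% for FC vs. BG. Slc25a5, an ADP/ATP carrier, fell in BF vs. BG by 0.53 (adjusted p = 0.0105), Slc6a8, the creatine transporter, fell in BF vs. FC by 0.38 (adjusted p = 0.038), and Ak1, adenylate kinase of the cytosol, rose in FC vs. BG by 0.35 (adjusted p = 0.0481). In tongue Slc6a8 and Atp2a1, the calcium pump of fast fibres, rose in FC vs. BG by 0.56 (adjusted p = 0.0183) and 0.38 (adjusted p = 0.0219).

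The genes most like each member over the 15 LD arrays were found by Pearson r between leading probe sets. These r mix differences between the groups with those within them. They were picked as the highest among 12393 genes over 15 arrays, and how high r would run by chance was not tested. Ppargc1a was most like Mad2l1bp (r = 0.871), Slc25a25 (0.862) and Skil (0.861). Esrra was most like Cntnap2 (0.933), Lclat1 (0.924) and Mrs2 (0.897). Mfn2 reached the highest value of all members, with Fto (0.978), Gaa (0.964) and Pcnx (0.963), and with the group means removed Fto still had 0.940. Opa1 was most like Cat (0.901), Crat and Ndrg2 (0.898), and Mfn1 most like Padi2 (0.936), Sbk1 (0.919) and Hp1bp3 (0.908). Ckmt2 was most like As3mt (0.957), Nfs1 (0.937) and Vdac3 (0.933), Tfam most like Actl6a (0.838), Fgfr3 (0.832) and Mtrr (0.820). For Nrf1 they were Crygs (0.818), Lmnb2 (0.804) and Jade1 (0.794), and for Ppard Taf7l (0.880), Mybl1 (0.856) and Usp29 (0.835). Among the members themselves Tfam and Mfn1 had the highest r, 0.819, and 0.795 with the group means removed.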

How the data were processed

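RNA of 23 muscle samples had been hybridised to Affymetrix Mouse Genome arrays. The authors made the deposited log2 values by RMA in Partek Genomics Suite 6.6, and the number of arrays and the spread between them limit the precision. The values ran between 2.24 and 14.5, and 0 pairs of arrays were identical. Probe sets were named through the platform annotation, which gives 1 gene for 20380, several for 691 and none for 1555 of the 22626. The difference between groups was fitted with limma 3.58.1 (R 4.3.3) in 1 model of 6 groups with 17 residual degrees of freedom, for 11 comparisons, and the Benjamini-Hochberg adjustment of p-values ran over the 22626 probe sets separately for each comparison. This stands for the ANOVA of the methods, whose unmoderated form was an alternative. The script was tested on simulated data with known changes. Genes of 14 lists (202 of 225 matched) were read from the brightest probe set of each.

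Named in the text were all 19 members, the up to 4 list genes of smallest adjusted p per comparison in LD and up to 2 in tongue, and the 3 genes most like each member. Some further list genes that passed were named after their values were seen. Members and lists were chosen with earlier results of these data known. The sequences came from RefSeq (GRCm38.p6). Alternatives were each muscle fitted alone, no moderation, trend and robust moderation, array weights, brighter probe sets, quantile normalization within a muscle, median centring, a replicate block and leaving out each array. Figures were drawn with matplotlib 3.10.9.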

Additional observations from a re-analysis of the deposited data

Results flagged for a closer look

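Within groups of 5 LD arrays, 9 single values lay far from the other 4 (gap over range above Dixon's value of 0.71). With 57 groups examined, chance gives about 1 in 20. FC replicate 4 was high in 4 probe sets of Ppargc1a. It read 10.52 in 1460336_at (others 9.87 to 10.01), 9.55 in 1434100_x_at (8.62 to 8.78), 9.54 in 1456395_at (8.42 to 8.72) and 9.14 in 1434099_at (8.26 to 8.44). BG replicate 5 read 7.69 in Ppargc1a 1456395_at (8.36 to 8.51) and 11.51 in Mfn2 1448131_at (11.15 to 11.21). BG replicate 3 read 5.77 in Nrf1 1424787_a_at (6.44 to 6.56). BG replicate 1 read 9.85 in Mfn1 1449697_s_at (10.11 to 10.18), and BF replicate 1 read 9.19 in Mfn1 1426773_at (9.62 to 9.70). In limma 0 of the 38 tests of a difference between the muscles passed for the members, with 3 at an unadjusted p under 0.05 and 1 passing with array weights.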

How the results depend on the processing

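Of 36 member values that passed, 35 kept their direction under every other model or scaling run for them (5 to 8) and all 23 left-out arrays, the exception being Mfn1 1449697_s_at between the muscles in BF mice, and 16 also passed throughout. In BF vs. BG in LD the count of 2 fell to 1 with each muscle fitted alone, no moderation, trend and robust moderation, quantile normalization within a muscle or median centring, and was 0 to 2 without single arrays. In FC vs. BG in LD the count of 4 was 2 with quantile normalization or median centring and 2 to 6 without single arrays. In BF vs. FC in LD it was 3 to 5. In tongue, BF vs. BG gave 3 and BF vs. FC gave 1 with array weights, and each gave 0 to 1 without single arrays. FC vs. BG in tongue gave 0 with each muscle fitted alone, 2 with quantile normalization, 3 with array weights and 0 to 1 without single arrays. Between the muscles in FC mice, 5 members passed among brighter probe sets, which hold 13 of the 19, and 5 to 10 without single arrays. The interaction of BF vs. BG gave 1 with array weights. The cause of these shifts was not tested.

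The replicate block gave 8 in FC vs. BG in LD, 1 in BF vs. BG and 3 in FC vs. BG in tongue, and 4 and 5 between the muscles in BF and BG mice. Around their group means, same-numbered arrays of different groups correlated at -0.218 to 0.545 in LD and -0.098 to 0.383 in tongue. Arrays of different numbers were not compared, so whether the numbers pair the arrays cannot be told. With the replicate block Mfn1 1449697_s_at turned to -0.016 between the muscles in BF mice.

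Chosen after seeing the data, the list counts were repeated. Here PGC-1 family genes means the whole list of that family and its co-regulators. PGC-1 family genes in LD numbered 5 to 8 in BF vs. BG without single arrays and 6 to 11 in FC vs. BG (6 without BG replicate 1), and 0 to 6 in FC vs. BG in tongue. PPAR delta genes numbered 2 to 5 in BF vs. FC (2 with no moderation, and without BF replicate 4 or FC replicate 3) and 1 to 4 in FC vs. BG (1 without FC replicate 3).

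Values near 0 turned sign. Tfam in BF vs. FC ran from -0.150 to 0.019 without single arrays, with the last without BF replicate 1. Ckmt2 1428722_at in BF vs. BG became -0.019 with median centring and ran from -0.111 to 0.113 without single arrays. Ckmt2 ran from -0.154 to 0.047 in FC vs. BG and from -0.015 to 0.146 in BF vs. FC. Of all calls in FC vs. BG in LD 75.9% were higher, and 65.2% after quantile normalization. In BF vs. BG in tongue these shares were 42.8% and 57%, and between the muscles in FC mice 59.2% and 69.5% with median centring, which moved the median there by 0.107.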
